A study of Capra hircus with 3 samples.

Results

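APOD, CHL1 and SPARCL1 are 3 of the 16739 genes in a single-cell table of fetal goat skin, and they are described here for the stage and the mesenchymal cells in which each appeared. They were chosen by their levels in these same cells, so the differences between stages and cell groups below are descriptions and none of them was tested. The samples were dorsal skin of Northern Shaanxi White Cashmere Goat fetuses (Capra hircus) at embryonic day 60 (E60), 90 (E90) and 120 (E120). Each stage gave 1 library, with the cells of at least 2 fetuses pooled before barcoding. E60 and E90 were whole skin loosened with collagenase IV and pipetting. E120 was hair follicles picked from collagenase-treated skin and then dissociated with TrypLE, so a difference of E120 from the other stages cannot be told apart from one of sampling and dissociation. Levels are CPM, the unique molecular identifiers (UMIs) of a gene summed over a group of cells and scaled to a total of 1000000, and every interval is an exact 95% interval that covers counting error only.

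A hair follicle forms where fibroblast-like cells of the dermis gather under a thickening of the epidermis as a dermal condensate, which the growing epithelium later encloses as the dermal papilla. The papilla sends growth factors and modifiers of WNT and BMP signalling to the hair matrix around it. Apolipoprotein D (APOD) is a secreted lipocalin, a small carrier of lipids that is also known from glia of peripheral nerves. CHL1, the close homolog of L1, is a cell adhesion receptor of the immunoglobulin superfamily known mainly from neurons and glia. SPARCL1, also called hevin, is a secreted matricellular protein of the SPARC family that is known from blood vessels.

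The libraries held 6849, 6931 and 6896 cells at E60, E90 and E120, with medians of 8579, 3714 and 13064 UMIs per cell. They shared 9 to 13 cell barcodes pairwise. Cells were clustered within each library with the 3 genes left out, and clusters were named from marker genes. Mesenchymal-like cells numbered 6336 at E60, 1325 at E90 and 222 at E120. At E90, 443 of them formed 2 papilla-like clusters. BMP3, BMP4, IGFBP3, INHBA and SOX18 were among the leading genes of the cluster of 266 cells, and SPON1, COL28A1, CAPN6 and PAPPA2 among those of the cluster of 177 cells. The cluster of 266 cells had a mesenchymal score of 1.4, equal to its mean log2 ratio over the papilla markers. All 222 mesenchymal-like cells of E120 formed 1 papilla-like cluster with 23 papilla markers found, led by FGF7, COL1A2, RSPO3 and RSPO2. With a finer clustering at resolution 2, in place of 1, only 185 of these 222 cells were papilla-like and 37 were fibroblast-like. No E60 cluster was papilla-like at resolution 1. The closest, with 440 of the 6849 cells and BMP4 and IGFBP3 among its leading genes, had a mean log2 ratio of 1.15 over the papilla markers and was kept out by a threshold of 1.25, a value chosen once the data were known. It had 0 counts of APOD and of CHL1 and a SPARCL1 level of 5.08 CPM. At resolution 2 a cluster of 34 E60 cells was papilla-like, with 0 counts of APOD and of CHL1 and 48.9 CPM of SPARCL1 (25.3 to 85.4), from 12 counts in 6 cells. The E90 clusters that stayed unnamed held 1857 cells.

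APOD was nearly absent from the mesenchyme at E60, was present in papilla-like cells at E90 and was at its highest there at E120. Its level in mesenchymal-like cells was 0.237 CPM at E60 (14 counts, 0.130 to 0.398), 46.8 CPM at E90 (286 counts, 41.6 to 52.6) and 1453 CPM at E120 (2163 counts, 1393 to 1516). Of the 15 fibroblast-like clusters of E60, 11 had 0 counts, and the highest reached 2.07 CPM. At E90 papilla-like cells had 119 CPM (105 to 136) and fibroblast-like cells 12.5 CPM (9.36 to 16.4), a ratio of 9.54 (7.03 to 13.1). Papilla-like cells held 36.1% of the APOD counts of the E90 library with 6.39% of its cells. At E120 they held 96.7% of the counts with 3.22% of the cells, and no other named class was above 3.60 CPM, the value in endothelial-like cells. The 37 E120 cells that were fibroblast-like at resolution 2 had 675 CPM of APOD (572 to 791) and the 185 papilla-like ones 1593 CPM (1524 to 1664), so APOD was in both groups of the mesenchyme.

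At E60 most APOD counts were in glia. The 60 Schwann or glial-like cells of E60 had 136 CPM (108 to 170) and 83.2% of the library's 95 APOD counts. At E90 the 83 cells of that class had 99.8 CPM (69.9 to 138), an interval that overlapped that of papilla-like cells. Melanocyte-like cells of E90 had 48.5 CPM (30.4 to 73.4). In the remaining classes of E90 the level lay between 3.95 and 19.4 CPM, and the intervals of neighbours in that order overlapped. At E120 no cluster was Schwann-like or melanocyte-like, so the level in those cells was not followed further.

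CHL1 was low in papilla-like cells at E90 and high in them at E120. Mesenchymal-like cells had 1 count of CHL1 at E60 (0.0169 CPM, 0.000429 to 0.0944), 58 counts at E90 (9.50 CPM, 7.21 to 12.3) and 859 counts at E120 (577 CPM, 539 to 617). The whole E60 library held 4 counts, of which 3 were in Schwann or glial-like cells. At E90 papilla-like cells had 12.8 CPM (8.26 to 18.9) and fibroblast-like cells 7.96 CPM (5.48 to 11.2). Their ratio was 1.60 with an interval of 0.915 to 2.78, so a difference was not detectable with these clusters. The log2 ratio of 0.62 (-0.10 to 1.33) became 0.98 (0.20 to 1.75) without the cells of highest doublet score, 1.42 (0.26 to 2.56) at resolution 0.5, and -0.68 (-2.26 to 1.27) with clusters called over all 3 libraries, so its direction depended on how the cells were grouped. The papilla-like and fibroblast-like levels of E90 were both below the 19.1 CPM of all E90 cells (17.5 to 20.7). Mast-like cells had 9.68 CPM (2.00 to 28.3) and Schwann or glial-like cells 11.1 CPM (3.02 to 28.4), with intervals that overlapped both. The part of free RNA in these E90 levels was not tested. From E90 to E120 the papilla-like level was 45.2 times higher (30.4 to 70.2). At E120 with resolution 2, CHL1 had 675 CPM in the 185 papilla-like cells (631 to 722) and 30.9 CPM in the 37 fibroblast-like cells (12.4 to 63.6). The latter value came from 7 counts in 2 cells.

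Epithelial-like cells held most of the CHL1 counts of E90. They held 60.1% of the library's CHL1 counts with 47.9% of its cells. Their level was 24.5 CPM (22.0 to 27.3), above the interval of papilla-like cells, beside 19.1 CPM over all E90 cells. The unnamed clusters had 19.2 CPM (16.3 to 22.4) and 27.4% of the counts with 26.8% of the cells. The highest value among the epithelial-like clusters of E90, 42.6 CPM, was in 348 cells led by LYPD2, SERPINA12, KRT4 and KRT10, the last a keratin of differentiating epidermis. At E120 epithelial-like cells as a whole had 5.63 CPM (5.14 to 6.15), beside 12.4 CPM in mural-like cells (4.57 to 27.1) and 10.9 CPM in mast-like cells (3.99 to 23.7), each from 6 counts. Their highest clusters were 142 cells led by SPP1, KRT14 and SOX9 at 55.8 CPM and 264 cells led by KRT10, CST6 and KLK7 at 37.9 CPM, both below the papilla-like 577 CPM. E60 had no epithelial-like cluster.

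SPARCL1 followed another course, with its highest papilla-like level at E90. Mesenchymal-like cells had 6.35 CPM at E60 (375 counts, 5.72 to 7.03), 571 CPM at E90 (3488 counts, 552 to 591) and 94.7 CPM at E120 (141 counts, 79.7 to 112). At E90 papilla-like cells had 1127 CPM (1081 to 1175) and fibroblast-like cells 309 CPM (292 to 326), a ratio of 3.65 (3.41 to 3.91). Against that papilla-like level, the papilla-like cells of E120 were 11.9 times lower (10.0 to 14.2). APOD in the same cells was 12.2 times higher at E120 (10.6 to 14.0). At E120 with resolution 2, SPARCL1 had 78.5 CPM in papilla-like cells (63.8 to 95.5) and 185 CPM in fibroblast-like cells (134 to 250). The share of cells with a UMI had the opposite order, 37.3% of papilla-like and 27.0% of fibroblast-like cells. The fibroblast-like level came from 42 counts in 10 of 37 cells.

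Blood vessels carried SPARCL1 at every stage. Endothelial-like cells had 339 CPM at E60 (316 to 363), 921 CPM at E90 (830 to 1020) and 1658 CPM at E120 (1613 to 1704), and held 64.2%, 4.91% and 95.5% of the library's counts at E60, E90 and E120. At E60 the 2 endothelial-like clusters differed, with 403 CPM in 117 cells with PLVAP and VWF among their leading genes and 7.80 CPM in 23 cells led by CCL21, MMRN1 and LYVE1, genes known from lymphatic vessels. In the E60 mesenchyme the SPARCL1 level was highest in tendon- or cartilage-like cells, led by COL2A1 and TNMD, at 114 CPM (97.7 to 133). This interval overlapped that of skeletal muscle-like cells at 112 CPM. Of the 375 SPARCL1 counts of the E60 mesenchyme, 171 were in the 154 tendon- or cartilage-like cells and 204 in the 6182 fibroblast-like cells. The 15 fibroblast-like clusters of E60 ranged from 0.316 to 34.0 CPM, with the highest in 285 cells led by CCL11, CAPN6 and MGP. At E90 papilla-like cells were above endothelial-like cells, and at E120 the order was the opposite, in both cases with intervals that did not overlap. The order at E90 rested on the papilla-like cluster of 266 cells, at 1325 CPM (1257 to 1396). The cluster of 177 cells had 885 CPM (824 to 949), an interval that overlapped that of endothelial-like cells.

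**Figure D1:**
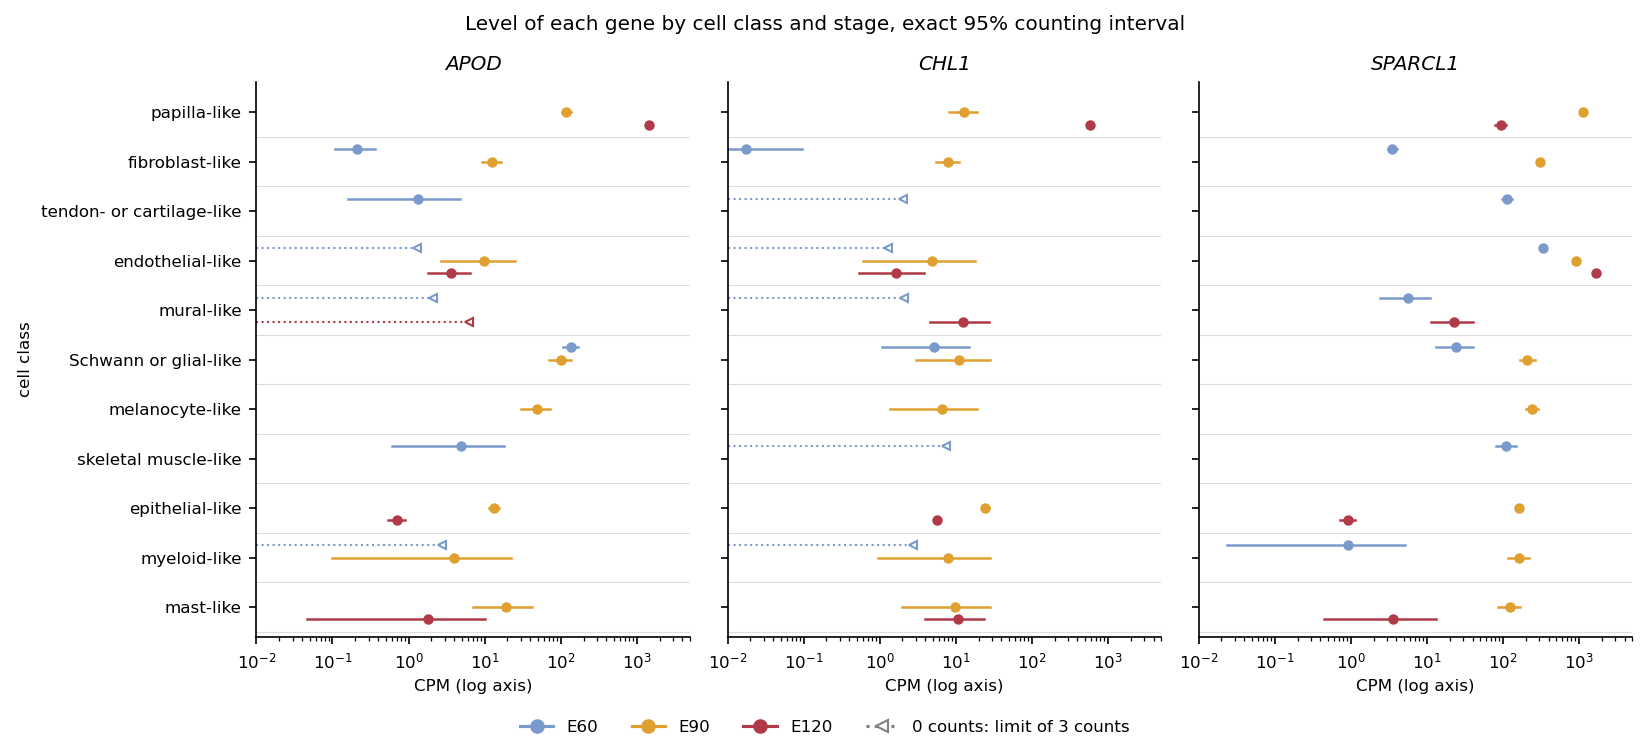
Level of each gene (CPM, log axis) in each cell class at E60, E90 and E120, with exact 95% counting intervals and, where a class had 0 counts, an open arrow at the level of 3 counts. In papilla-like cells APOD and CHL1 were higher at E120 than at E90 (1453 against 119 CPM and 577 against 12.8 CPM), whereas SPARCL1 was higher at E90 (1127 against 94.7 CPM).

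Collagen counts in epithelial-like cells, which should lack them, were set beside the counts of the 3 genes at E90. Free RNA is a possible source of such counts, and their source was not tested. COL1A1, a collagen chain of mesenchymal cells, had 445 CPM in epithelial-like cells of E90 and 1.68 CPM in those of E120. SPARCL1 had 36.9 counts per 100 COL1A1 counts in epithelial-like cells of E90 (35.4 to 38.5), next to 37.2 in the whole library (36.3 to 38.0). For APOD these values were 3.02 (2.61 to 3.48) and 3.18 (2.94 to 3.44). The whole library includes these epithelial-like cells. Their levels were 164 CPM of SPARCL1 and 13.4 CPM of APOD, and over their clusters SPARCL1 ranged from 34.3 to 290 CPM. The cluster with the highest value, of 936 cells, had a class score of 1.52 for epithelial and 1.08 for mesenchymal. The part of free RNA in these levels was not tested. For CHL1 the epithelial-like value was 5.52 (4.95 to 6.13), above the 2.83 of the whole library (2.60 to 3.07) and the 0.655 of mesenchymal-like cells (0.497 to 0.847). Fibroblast-like cells of E90 had an APOD level of 12.5 CPM, within the interval of the epithelial-like level.

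The share of cells with a UMI gave the same picture at equal depth. With every cell reduced to 2000 UMIs drawn at random, and no cell too shallow for that, APOD was found in 0.0158% of mesenchymal-like cells at E60 (0.00040 to 0.0879), in 15.6% of papilla-like cells at E90 (12.3 to 19.3) and in 79.3% of them at E120 (73.3 to 84.4). The unthinned shares were 0.205%, 29.1% and 91.0%, at median depths of 8526, 3963 and 5508 UMIs. Epithelial-like cells had thinned APOD shares of 3.07% at E90 and 0.156% at E120. CHL1 was found in 0 of 6336 mesenchymal-like cells at E60, in 2.48% of papilla-like cells at E90 (1.25 to 4.40) and in 57.7% at E120 (50.9 to 64.2), beside 4.85% and 1.47% of epithelial-like cells at E90 and E120. For SPARCL1 the papilla-like share was 70.9% at E90 (66.4 to 75.1) and 17.6% at E120 (12.8 to 23.2), beside 25.9% and 0.259% of epithelial-like cells. Without thinning, CHL1 was found in 4.74% and 78.4% of papilla-like cells at E90 and E120, and SPARCL1 in 84.4% and 35.6%.

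**Figure D2:**
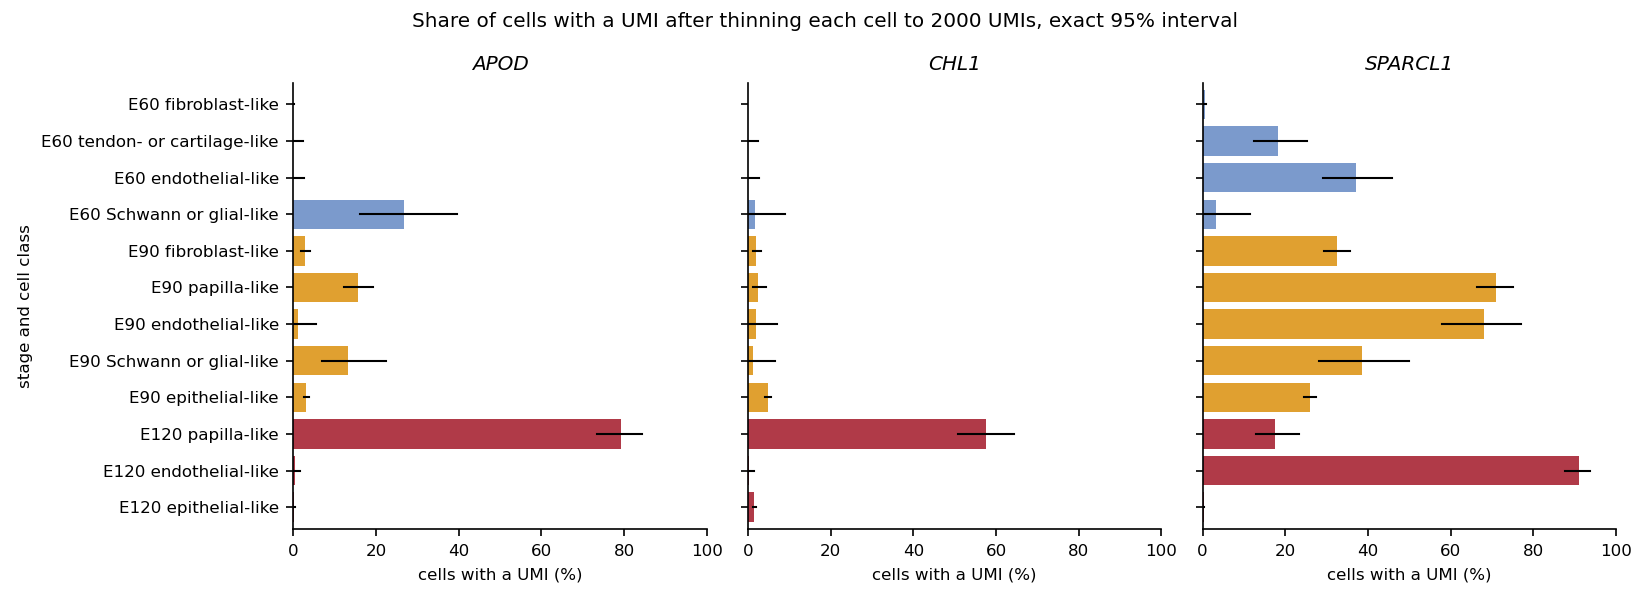
Share of cells with at least 1 UMI of each gene (percent) after thinning every cell to 2000 UMIs, by stage and cell class, with exact binomial 95% intervals. The papilla-like share went from 15.6% to 79.3% for APOD and from 2.48% to 57.7% for CHL1 between E90 and E120, and from 70.9% to 17.6% for SPARCL1.

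Within the mesenchyme of E90, APOD and SPARCL1 peaked in different groups of cells. The mesenchymal-like cells were clustered again on their own, which gave 9 finer groups. The group of 131 cells led by COL28A1, PAPPA2 and LRRTM2, all of them papilla-like, had the highest APOD level, 205 CPM (171 to 245), with 833 CPM of SPARCL1 (762 to 909). The group of 65 cells led by IGFBP3, BMP3, BMP4 and WNT10A, 62 of them papilla-like, had 121 CPM of APOD (86.5 to 164) and the highest SPARCL1 level, 3232 CPM (3044 to 3429). SPARCL1 was found in all 65 of these cells. SOX2, a transcription factor of some dermal papillae, had 102 CPM in the first group and 0 counts in the second, and SOX18, a transcription factor known from the dermal condensate, had 2198 and 3747 CPM.

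Another group of 69 cells led by TNMD, CCN3 and PCSK1N, of which 40 were papilla-like, had 1530 CPM of SPARCL1 (1418 to 1648) and 70.5 CPM of APOD (48.2 to 99.6). The 1 group without a papilla-like cell was led by COCH and DIPK1C, and its 61 cells had 0 counts of APOD, which allows 8.71 CPM, and 441 CPM of SPARCL1. The 182 cells led by FILIP1, PAM and WNT16, nearly all fibroblast-like, had 2.29 CPM of APOD and 66.4 CPM of SPARCL1. In the 372 cells led by S100A2, SLC2A3 and KRT14, 165 of them papilla-like, APOD was 42.8 CPM and SPARCL1 396 CPM. The keratin KRT14 had 480 CPM there, 408 CPM in the group of 267 cells and 458 CPM in that of 143 cells. The latter groups had 9.35 and 33.2 CPM of APOD and 218 and 346 CPM of SPARCL1. DSC1, LGALS3, CST6 and KRT1 were among the leading genes of the 267 cells, and HBAII, HBAI and KRT5 among those of the 143 cells. These groups held 10 and 32 papilla-like cells and 257 and 111 fibroblast-like cells. The papilla-like and fibroblast-like levels of E90 thus include many cells from groups led by keratinocyte or haemoglobin genes. The part of free RNA in the values of these groups was not tested. CHL1 was between 0 and 16.7 CPM in the 9 groups.

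At E120 the cells of the papilla-like cluster were not uniform either, and CHL1 differed among them by more than its counting intervals. Of their 6 finer groups, 4 had CHL1 levels between 702 and 838 CPM. Among their leading genes were KLK7 and ISG17 (70 cells), CXCL14 and RASL11A (40 cells), PAPPA2 and SOX9 (37 cells), and C1QA and C1QB (33 cells). A group of 16 cells led by KRT84 and KRT35 had 211 CPM of CHL1 (156 to 280). In the group of 26 cells led by ACTA2, TNMD and COL11A1 the CHL1 level was 40.6 CPM (17.5 to 80.0), and 2 cells had a UMI. That group had 5070 CPM of ACTA2, a smooth muscle actin, against 4.41 to 175 CPM in the others, and 60.9 CPM of RSPO3, an activator of WNT signalling, against 317 to 2034 CPM. Its APOD level was 584 CPM (482 to 701), so APOD was present where CHL1 was low. The papilla genes FGF7 and RSPO2 were at 152 and 107 CPM in these 26 cells, against 717 to 3752 CPM and 306 to 1964 CPM in the other groups. At resolution 2, 24 of the 26 cells were fibroblast-like, so the low CHL1 level cannot be placed within the papilla.

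APOD itself ranged over the E120 groups from 405 CPM to 2554 CPM (2396 to 2719) in the KLK7 group, followed by 2064 CPM (1896 to 2242) in the group of 37 cells. SPARCL1 was lowest in that group of 37 cells, at 29.5 CPM (12.8 to 58.2), and between 88.6 and 141 CPM in the other 5. The lowest APOD value belonged to 16 cells led by KRT84 and KRT35, hair keratins, with a median of 16173 UMIs and 4267 CPM of KRT35 against 355 to 447 CPM in the other groups. Without these 16 cells the E120 papilla-like level was 1642 CPM for APOD, 643 CPM for CHL1 and 92.8 CPM for SPARCL1.

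**Figure D3:**
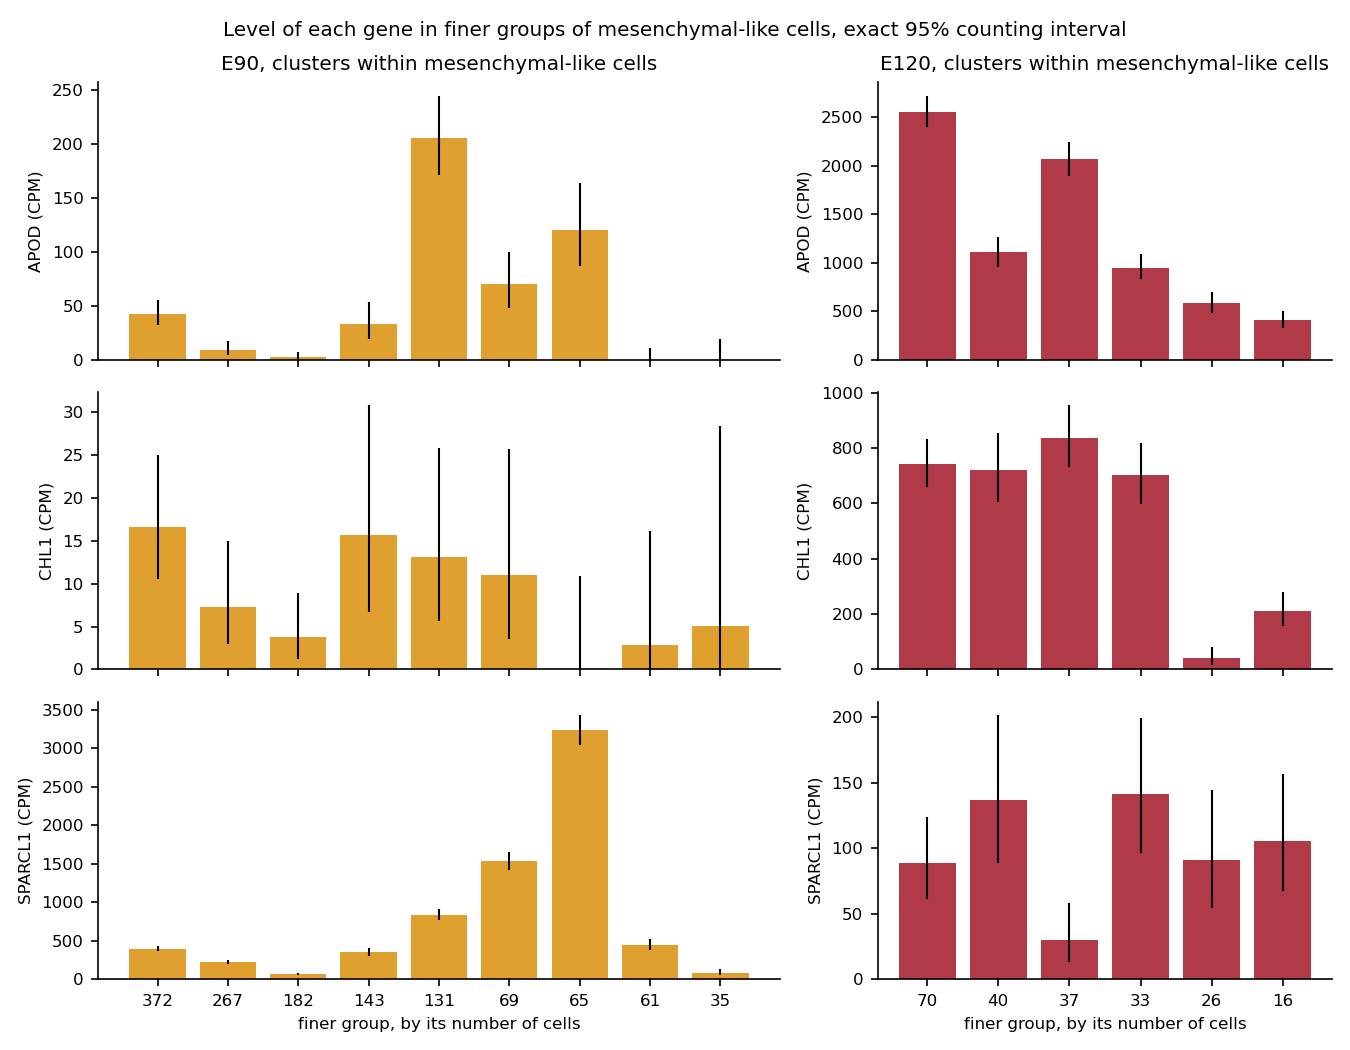
Level of each gene (CPM, with exact 95% counting intervals) in finer groups of the mesenchymal-like cells of E90 (9 groups) and E120 (6 groups), each marked by its number of cells. At E90 APOD was highest in the COL28A1 group of 131 cells (205 CPM) and SPARCL1 in the IGFBP3 group of 65 cells (3232 CPM), and at E120 CHL1 was lowest in the ACTA2 group of 26 cells (40.6 CPM).

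Many papilla-like cells of E120 held APOD and CHL1 together, in a number near the product of the single shares. Of these 222 cells, 60 had UMIs of all 3 genes, 118 of 2, 39 of 1 and 5 of none. APOD and CHL1 were together in 165 cells, beside 158 from the product of their shares, and APOD and SPARCL1 in 70, beside 71.9. Deep cells raise any such number. In the papilla-like cells of E90, 117 of 443 cells held APOD and SPARCL1, beside 109 from the product, and 7 held all 3. Among E120 papilla-like cells with APOD the median was 8 UMIs and the highest 46, and 61.7% of all 222 cells had at least 5. For CHL1 the median was 4.5 UMIs and the highest 14. In E90 papilla-like cells with APOD the median was 1 UMI and the highest 10.

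The stage comparisons were read on the scale of the log2 ratio of CPM + 1, over the genes whose higher group had at least 20 CPM, with a ratio past 3 in either direction counted as called. From E60 to E90 in mesenchymal-like cells, 3.27% of 4652 genes were called higher. APOD (5.27) and SPARCL1 (6.28) were among them, and CHL1 did not enter because it stayed under 20 CPM. From E90 to E120, 2.72% of 4894 genes were called higher, with APOD (4.93) and CHL1 (5.78) among them, and 1.55% lower, without SPARCL1 (-2.58). Since all mesenchymal-like cells of E120 fell in the papilla-like cluster at resolution 1, the same comparison was made within papilla-like cells. There 2.46% of 5008 genes were called higher, with APOD (3.59) and CHL1 (5.39), and 1.18% lower, with SPARCL1 (-3.56). Between papilla-like and fibroblast-like cells of E90, 0.171% of 4679 genes were called higher, 8 in all. APOD (3.15) was 1 of them, SPARCL1 (1.86) was not, and CHL1 did not enter. The members were chosen from such contrasts, so nothing is read from these counts. The APOD value of 3.15 fell below 3 in 5 of 8 other ways to set the cells or the ratio, down to 2.50 with clusters called over all 3 libraries together, and that of SPARCL1 ranged from 0.95 to 3.05. With the class of each cell taken from its own marker counts, the values from E90 to E120 were 2.17 for APOD and 2.18 for CHL1 (1357 E120 cells, most of them outside the papilla-like cluster). The median over all genes was 0.18 from E60 to E90 and 0.01 from E90 to E120 in mesenchymal-like cells.

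Other genes of the dermal condensate and papilla had steps of their own, and the 3 genes differed in which of these they ran beside. The papilla list, the whole of which served to name the papilla-like clusters, had 31 of its 32 genes in the table, and 24 of these reached 50 CPM in a mesenchymal-like or papilla-like group. SOX18 (12.4, 2004 and 175 CPM in E60 mesenchymal-like, E90 papilla-like and E120 papilla-like cells) and the chemokine receptor CXCR4 (9.14, 1189 and 47.0 CPM) were, like SPARCL1, highest at E90. BMP4 (23.1, 166 and 27.6 CPM), ALPL, PRDM1, PTCH1, SPON1, ENPP2, INHBA and TRPS1 also had their highest value there. SOX18, like SPARCL1, was also high in endothelial-like cells, at 1383, 629 and 820 CPM at E60, E90 and E120.

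At E120 the growth factor FGF7 (30.2, 14.3 and 1880 CPM), the WNT activator RSPO2 (0.0169, 0 and 1124 CPM), EDN3, a peptide that acts on melanocytes (17.6, 5.62 and 579 CPM), and SFRP1 (41.3, 25.0 and 1113 CPM) were high without being raised at E90. CHL1 was at 0.0169, 12.8 and 577 CPM in these groups, so unlike these genes it was higher at each step. Its E60 value rests on 1 count, and its E90 value was below the 19.1 CPM of all E90 cells. SOX2 (0.271, 56.7 and 346 CPM), the hedgehog-binding protein HHIP (1.39, 51.6 and 297 CPM) and WIF1, a WNT inhibitor (1.32, 55.2 and 1332 CPM), were higher at each step, as was APOD. RSPO3, SFRP2, FGF10 and HEY1 were also highest at E120, IGFBP3 was nearly level (102 and 103 CPM at E90 and E120), and TBX18 and VCAN were highest in fibroblast-like cells of E90. From E60 to E90 in mesenchymal-like cells 7 of the 20 list genes with enough counts were called higher and none lower, beside 3.27% and 0.752% of all genes, with a list median of 1.88 beside 0.18. The cells were named with this list, so nothing is read from its counts. From E90 to E120 in papilla-like cells 7 of 24 were called higher and 2 lower, SOX18 and CXCR4, beside 2.46% and 1.18% of all genes, with a median of 0.49 beside -0.06 over all genes.

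**Figure D4:**
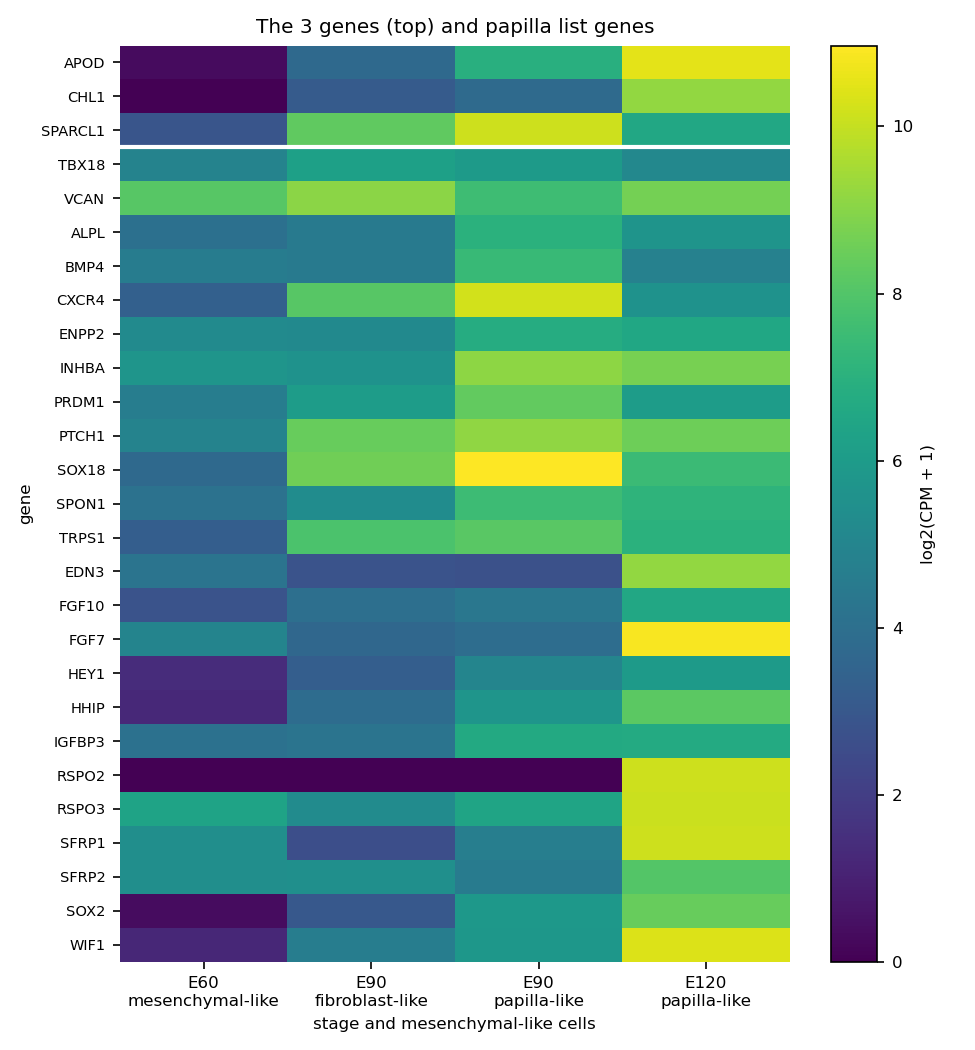
Levels, as log2(CPM + 1), of APOD, CHL1 and SPARCL1 (above the white line) and of the 24 papilla list genes that reached 50 CPM, in E60 mesenchymal-like, E90 fibroblast-like, E90 papilla-like and E120 papilla-like cells. SPARCL1 was highest in the E90 papilla-like column with SOX18 and CXCR4, and APOD and CHL1 in the E120 column with FGF7, RSPO2, EDN3 and SFRP1.

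Relatives and listed partners of the 3 genes were measured in the same cells. Of 8 lipocalins listed, 3 were in the table, and none reached 50 CPM in the mesenchyme. RBP4, the carrier of retinol, was the highest of these, at 43.0 CPM in the papilla-like cells of E120. LEPR, listed as a partner of APOD, had 21.5 CPM there. In the L1 family, L1CAM had 2.02 CPM and NRCAM 1.34 CPM in the papilla-like cells of E120. L1CAM had 186 CPM in the Schwann or glial-like cells of E60. Among listed partners of CHL1, the integrin subunit ITGB1 had 215, 320 and 345 CPM in E60 mesenchymal-like, E90 papilla-like and E120 papilla-like cells, NRP1, a semaphorin co-receptor, had 81.4, 126 and 41.0 CPM, the cytoskeletal adaptor ANK3 had 75.0, 64.4 and 43.0 CPM, and its relative ANK2 had 21.2, 33.7 and 32.2 CPM. From E90 to E120 in papilla-like cells 0 of 5 partners were called higher and 1, SEMA3A, lower, beside 2.46% and 1.18% of all genes, and with 5 genes nothing is read from this. In the SPARC family, SPARC had 4469, 2289 and 2792 CPM in the same 3 groups, FSTL1 109, 196 and 243 CPM, SMOC1 7.80, 144 and 106 CPM, and SMOC2 212, 40.9 and 22.2 CPM. Of 4 members of that family with enough counts, SMOC1 was called higher from E60 to E90 in mesenchymal-like cells, beside 3.27% of all genes. In endothelial-like cells, where SPARCL1 was higher at each later stage, SPARC had 2215, 1677 and 1683 CPM.

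Over the 66 clusters of at least 50 cells, the genes whose log2(CPM + 1) ran closest to each member were found among 4399 genes that reached 50 CPM in a cluster. These clusters share libraries, depth and free RNA, so the correlations are descriptions only. APOD was closest to SOX2 (Pearson r 0.910), then CHST8, BMP3, NTRK3 and COL28A1 (r 0.839 to 0.800). CHL1 was closest to KLK7 (0.815), then CLK4, CLK1, PNRC1 and RASGEF1B (0.807 to 0.793). SPARCL1 was closest to SOX18 (0.905), then DEPP1, PLCB4, GAP43 and CCSER2 (0.901 to 0.858). Of these, SOX18 was also high in endothelial-like cells, and DEPP1 was highest in the endothelial-like cluster of E90, at 3057 CPM. With Spearman's rho in place of r, SOX2 was no longer among the 5 closest genes of APOD nor SOX18 among those of SPARCL1, while KLK7 was still among those of CHL1. Among themselves, APOD and SPARCL1 had r 0.72, APOD and CHL1 0.70, and CHL1 and SPARCL1 0.47.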

How the data were processed

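Single-cell 3′ libraries (10x Genomics, version 3 chemistry) of E60, E90 and E120 were used, and Cell Ranger 3.0.2 is named in the submitters' processing notes. The genome build, the annotation and the filters on cells are not given in the sources used here. The deposited values were natural log values: per cell they had been scaled by the authors to 10000 and transformed as ln(1 + value), as the values showed. Whole UMI counts were recovered from 100% of the nonzero values within a tolerance of 0.01. Counts had been assumed when the analysis was planned, so every sum was made from the recovered counts. The table held 20676 cells, whereas the design text states 19705.

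Cells were clustered per library with scanpy 1.11.5 and leidenalg 0.10.2 (2000 variable genes without the 3 members, 30 components, 20 neighbours, resolution 1). Each marker list was scored by its mean log2 ratio over the 10% quantile of the library's clusters. The score of a class was the highest of its own list and the lists of its parts. For mesenchymal these were the fibroblast, papilla and tendon or cartilage lists, so the papilla list alone could name a cluster mesenchymal-like. A cluster took the class with the highest score, by a margin of 0.25. It stayed unnamed with fewer than 3 markers found or fewer than 20 cells. The same held where markers of another class outnumbered its own among its leading genes, or where haemoglobin or mitochondrial genes led. Low depth left a cluster unnamed only if none of its leading genes was a marker of its class. This scoring and the papilla threshold were set after the data had been seen. Doublets were scored but kept.

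Intervals at 95% are exact Poisson for sums of counts and Clopper-Pearson for shares of cells. A count of 0 is given with the level of 3 counts. With 1 library per stage there was no test and no measure of the spread between fetuses. The ratio code was tested on simulated data. The members and gene lists were chosen with earlier results of these data known. The genes named are the 3 members, the 5 genes most correlated with each, and the listed genes that reached 50 CPM in a mesenchymal-like or papilla-like sum. Genes below that level, the leading genes of clusters, and COL1A1, KRT14, KRT35, ACTA2 and L1CAM were named after their values were seen. Symbols are as in the table, and the RefSeq list of assembly ARS1.2 held all 3 members.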

Additional observations from a re-analysis of the deposited data

How the results depend on the processing

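All values here are log2 ratios of CPM + 1, with 1 library per stage, and 38 of the 81 values under other settings stayed within the counting interval of the value reported. Apart from the CHL1 comparison within E90, no direction reversed. From E60 to E90 in mesenchymal-like cells, the values for APOD, CHL1 and SPARCL1 were 5.79, 2.98 and 6.77 at resolution 0.5, 5.62, 2.91 and 6.63 with clusters called over all 3 libraries together, 4.47, 3.74 and 5.60 with classes from each cell's own marker counts, and 2.47, 0.96 and 5.15 with a pseudocount of 10 CPM. Scaling by the median of ratios, which moved all genes by 0.71, gave 4.59, 2.75 and 5.58. With cells filtered to a minimum of 1000 genes and a maximum of 10% mitochondrial counts, CHL1 was 2.90, and with equal weight for each cell SPARCL1 was 6.13. From E90 to E120, the same 3 genes were at 4.41, 6.17 and -3.11 at resolution 0.5, 4.66, 6.33 and -3.37 with clusters over all libraries, and 2.17, 2.18 and -2.86 with classes from own markers. APOD was 4.69 and CHL1 4.91 with the larger pseudocount, CHL1 6.25 under the filter, and APOD 5.11 and SPARCL1 -2.01 with equal weights. For papilla-like against other mesenchymal-like cells of E90, APOD was 4.09 at resolution 0.5, 3.99 at resolution 2, 2.50 with clusters over all libraries, 2.68 with own markers and 2.52 with the larger pseudocount. CHL1 was 1.42 at resolution 0.5 and reversed to -0.68 with clusters over all libraries and -0.33 with own markers. SPARCL1 was 3.05 at resolution 2, 0.95 with clusters over all libraries, 2.33 with own markers and 1.34 under the filter. The classes held other cells under these settings, and the cause of each move was not tested. Leaving out the top 6% of cells by doublet score, and the 16 hair keratin-led cells of E120 (chosen after seeing the data), kept every value within the counting interval of the value reported. Thinning to 1000 UMIs in place of 2000 lowered the E120 shares in mesenchymal-like cells from 79.3% to 62.6% for APOD, from 57.7% to 39.6% for CHL1 and from 17.6% to 9.91% for SPARCL1. Of the 5 genes most like each member, 2, 2 and 1 were shared with Spearman's rho for APOD, CHL1 and SPARCL1. The ratio of CHL1 from E60 to E90 rests on 1 count at E60 and 58 counts at E90.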
